A study of Mus musculus with 6 samples.

Results

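The respiratory chain genes are the genes for the 4 electron-carrying complexes of the inner mitochondrial membrane and for the ATP synthase (complex V). They were chosen by name: protein-coding rows of the deposited table called Nduf with a further letter a, b, c, s or v, Sdha to Sdhd, Uqcr, Cox4 to Cox8, Atp5, Cyc1 or Cycs, and every row on the mitochondrial chromosome. This gave 105 of the 21139 rows, 92 encoded in the nucleus and 13 in the mitochondrial genome. The nuclear rows comprised 36 subunits of complex I, 7 complex I assembly factors (Ndufaf), 4 subunits of complex II, 9 of complex III with Cyc1, 17 of complex IV with Ndufa4, 15 of complex V, the electron carrier Cycs, and 3 rows that share a name but are not standard subunits (Ndufa4l2, Atp5s and Atp5sl). The mitochondrial rows comprised 7 subunits of complex I, 1 of complex III, 3 of complex IV and 2 of complex V. The table used here held 0 mitochondrial ribosomal RNA rows and 0 transfer RNA rows.

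The chain passes electrons from NADH (complex I) and succinate (complex II) through ubiquinone, complex III and cytochrome c to oxygen at complex IV, and the proton gradient this builds drives the ATP synthase. All subunits of complex II come from nuclear genes, whereas complexes I, III, IV and V combine nuclear subunits with a few encoded by mitochondrial DNA, which is transcribed as long precursors that are cut into single RNAs. Activated T cells enlarge their mitochondria and use both glycolysis and respiration while they divide.

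RNA was measured in CD4+ T cells from the spleen of C57BL/6J mice that had been activated for 2 days with anti-CD3 and anti-CD28 antibodies. All 6 libraries shared this activation, and 3 of them had medium alone while the other 3 had CpdA at a labelled dose of 20, with a unit read as micromolar. The series' design calls CpdA an agonist of Gpr120, a receptor for long-chain fatty acids, and asks how gene profiles differ with and without it. Neither a vehicle for the medium group nor separate animals or cultures behind the libraries are named in the sources used here. The p-values therefore cover the spread among these libraries alone, and that spread may be technical.

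Library totals ran from 20247761 to 25952169 counts. Levels are given as CPM, the counts scaled to a common library total, or, to compare genes, as the deposited FPKM, which also divides by gene length. Calls rest on an adjusted p under 0.05 in the quasi-likelihood test of edgeR, with Benjamini-Hochberg adjustment over the 13507 genes tested. Markers of CD4 T cells summed to between 2798 and 2891 CPM in the 6 libraries, but single markers moved in opposite directions. Cd4, Cd3d, Cd3e, Cd3g, Cd28 and Trac were lower in every CpdA library than in any medium library. Cd2, Cd5 and Trbc2 were higher in every CpdA library, and Trbc1 overlapped. Cd4 had 374 to 385 CPM in medium and 331 to 335 with CpdA, and Cd2 had 488 to 491 and 517 to 537. The 6 dendritic cell markers summed to between 219 and 224 CPM in medium and between 201 and 209 CPM with CpdA, nearly all of it H2-Ab1 and Cd74, which moved in opposite directions. H2-Ab1 had 139 to 144 CPM in medium and 106.7 to 114.5 with CpdA, and Cd74 had 76.0 to 76.8 CPM in medium and 90.2 to 91.3 with CpdA. Siglech had 0.0423 CPM or less in each medium library. The macrophage markers found summed to between 4.78 and 5.83 CPM in medium and 4.2 to 4.34 CPM with CpdA, mostly Cd68. The neutrophil markers found, Ly6g and Cxcr2, summed to between 7.35 and 8.30 CPM in medium and 5.93 to 6.35 CPM with CpdA. The part of other cells in the results below was not tested, and in bulk samples a change in cell number and a change in RNA per cell cannot be told apart.

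Of the 105 rows, 102 passed the filter on low counts, 90 nuclear and 12 mitochondrial. The rows left out were mt-Atp8, Cox8b and Ndufa4l2. Among the nuclear genes, 11 were higher and 4 lower with CpdA, or 16.7% of the 90 tested, where 33.2% of all tested genes were called. Among genes with a mean of at least 20 CPM, 12 of 78 nuclear members were called (15.4%), against 46.8% of all 7088 such genes. Levels in the groups did not overlap for 22 nuclear members that were higher and 7 that were lower with CpdA, where 43.9% of all tested genes did not overlap. The changes of nuclear members were also small. Their median log2 fold change was 0.02 with quartiles of -0.03 and 0.06, beside a median of 0.00 and quartiles of -0.16 and 0.13 for all tested genes. The fold change was under 1.1 for 75 of the 90 nuclear genes (83.3%) and for 48.8% of all tested genes. Their replicates lay close together. Within groups, the median SD of log2 CPM was 0.0434 for the 84 nuclear members with a mean of at least 5 CPM. The median of all 9801 genes at that level was 0.0626. However, nuclear members had a median of 91.3 CPM, beside 22.6 for all tested genes. These fold changes and SDs were not compared with genes of like level, and counting noise is smaller at higher counts.

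**Figure D1:**
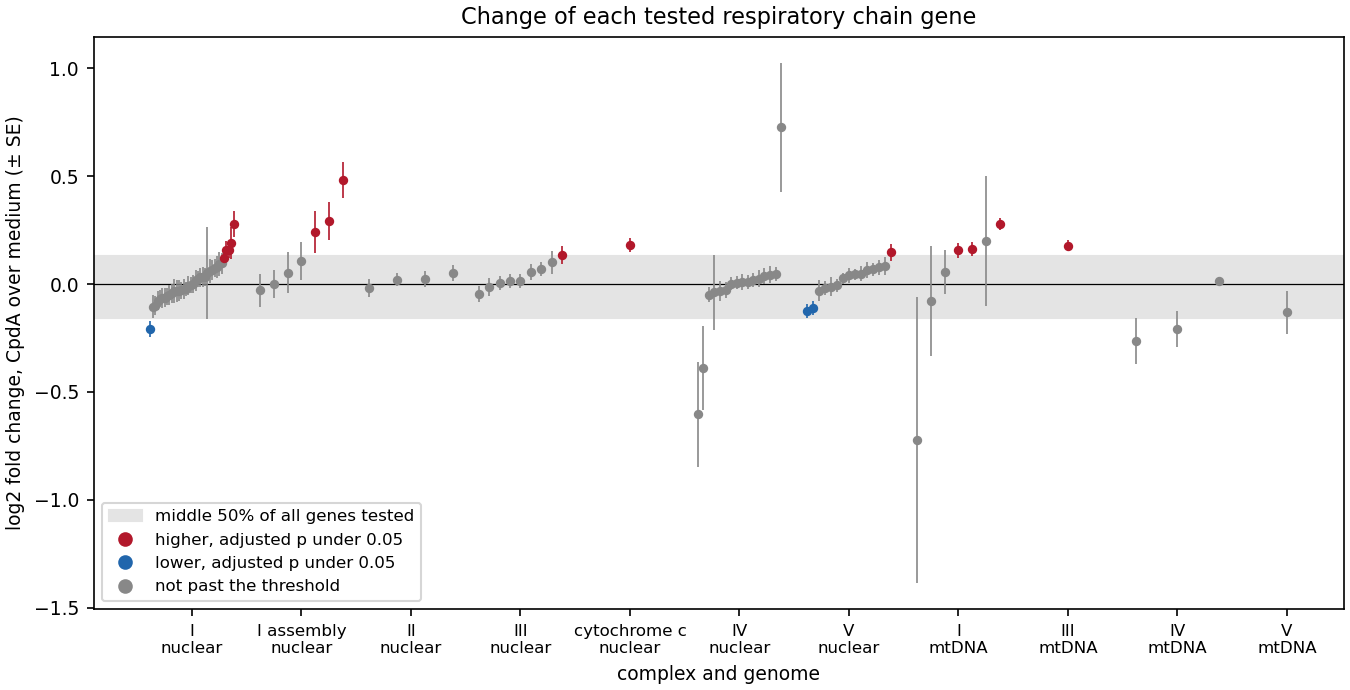
Log2 fold change of CpdA over medium with its SE for each tested member, by complex and genome; Ndufa4l2, Atp5s and Atp5sl are not drawn. Most nuclear subunits lie near 0 inside the grey band of the middle 50% of all genes tested, while mt-Nd1 (0.28), mt-Cytb (0.18), Ndufaf4 (0.48) and Cycs (0.18) lie above it.

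The mitochondrial rows are described first because 1 stretch of nuclear DNA bears on how they can be read. Mouse chromosome 1 carries a copy of part of the mitochondrial genome, annotated in GENCODE M21 (GRCm38) as unprocessed pseudogenes between 24611535 and 24616197. Rows for these pseudogenes stand in the table too. The transcript of Gm28661 matched mt-Co2 at 100% over 681 of 684 bases, Gm10925 matched mt-Atp6 at 100% over 678 of 681, Gm28437 matched mt-Co3 at 100% over 783 of 784, and Gm10222 matched mt-Nd4l at 100% over 294 of 297. Gm28438 matched 345 of the 348 bases of mt-Nd3 with a single substitution, T3C, with positions counted from 1 at the gene's first base. Gm28439 matched mt-Nd4 at 100%, but over only its first 876 of 1378 bases, and Gm29216 matched the last 483 of 1545 bases of mt-Co1 with the single substitution A1066T. The windows that hold these substitutions are shown because these are the only bases in the matched stretches that part the copies from their genes; the differing base is in capitals, and the mitochondrial windows are chrM:9459-9578 and chrM:6390-6509 on the plus strand.

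mt-Nd3: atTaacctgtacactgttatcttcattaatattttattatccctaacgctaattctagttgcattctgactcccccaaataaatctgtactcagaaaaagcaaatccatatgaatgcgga
Gm28438: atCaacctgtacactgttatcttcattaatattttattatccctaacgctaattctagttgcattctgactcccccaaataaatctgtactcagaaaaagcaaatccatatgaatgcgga
mt-Co1: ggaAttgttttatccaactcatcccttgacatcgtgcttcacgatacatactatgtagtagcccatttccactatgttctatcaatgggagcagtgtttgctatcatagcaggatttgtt
Gm29216: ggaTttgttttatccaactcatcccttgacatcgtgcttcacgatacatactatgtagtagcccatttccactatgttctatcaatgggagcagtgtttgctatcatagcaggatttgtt

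A read inside such a stretch that covers no differing base cannot be placed by its sequence, and no source used here says how the authors' counting treated it. The 5 rows covered over more than 95% of their length had a mean FPKM between 3.42 and 33.1, and both rows covered in part had 471 (mt-Nd4) and 5766 (mt-Co1). In 6 rows no annotated chromosome 1 transcript matched over a long enough stretch. Of these, mt-Nd1 had 1291 FPKM, mt-Cytb 1210, mt-Nd6 739, mt-Nd5 685 and mt-Nd2 577. The sixth, mt-Atp8, had 0, 0 and 1 counts in medium and 0, 1 and 1 with CpdA. Its neighbours on either side, mt-Co2 and mt-Atp6, are both among the covered rows. It also shares bases with mt-Atp6, since mt-Atp8 ends at 7969 and mt-Atp6 starts at 7927. Only annotated transcripts were compared, so the missing match does not show that mt-Atp8 lacks a copy. The copies' own rows had FPKM values of 40.5 for Gm28661 beside 33.1 for mt-Co2, 31.6 for Gm10925 beside 16.6 for mt-Atp6, 20.9 for Gm28437 beside 18.9 for mt-Co3, 4.39 for Gm10222 beside 3.42 for mt-Nd4l, and 3.77 for Gm28438 beside 29.7 for mt-Nd3. The values of these 5 rows and of mt-Atp8 are therefore uncertain as measures of the mitochondrial transcripts. Other copies, such as Gm13340 on chromosome 2 (97.6% identical to mt-Co1), had at most 1931 counts in all.

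**Figure D2:**
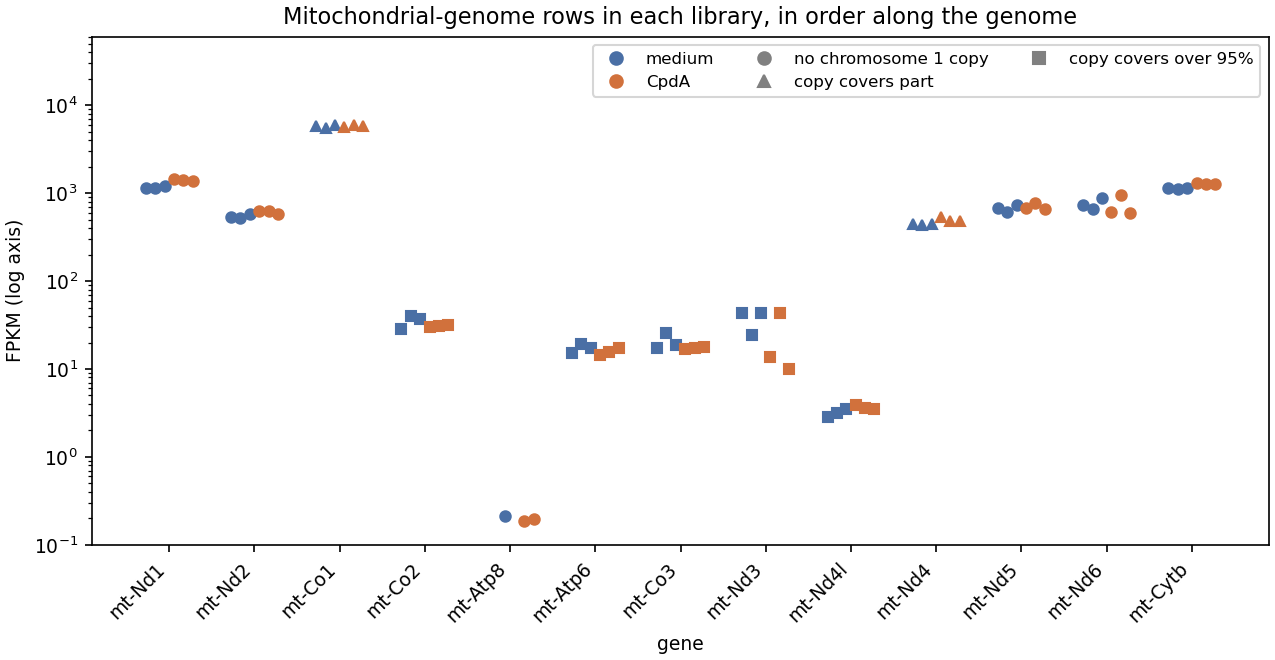
Deposited FPKM of the 13 mitochondrial-genome rows in each library, on a log axis and in the order of the genes along the genome; libraries at 0 for mt-Atp8 are not drawn. Rows with a chromosome 1 copy over 95% of their length (squares) lie at or below 33.1 on average, and mt-Co1 stands at 5766. The circle of mt-Atp8 marks only the lack of a long enough match to an annotated copy transcript.

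With CpdA, 4 of the 12 tested mitochondrial rows were higher, and these were mt-Nd1, mt-Nd2, mt-Nd4 and mt-Cytb. This was 33.3%, where 16.5% of all tested genes were higher. In either direction the called share was also 33.3%, beside 33.2% of all tested genes. The median level of the 12 rows was 491 CPM, and 46.8% of genes with a mean of at least 20 CPM were called. No tested row was lower in edgeR or DESeq2, and limma-voom called 1 lower, mt-Nd3. At an unadjusted p under 0.05 in edgeR, 2 rows were lower, mt-Co2 and mt-Co3. The median log2 fold change of the 12 rows was 0.03. All 4 called rows code for subunits of complexes I and III.

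mt-Nd1, a core membrane subunit of complex I (mitochondrial chromosome, 2751 to 3707, plus strand), had 1082, 1098 and 1155 CPM in medium and 1395, 1361 and 1320 CPM with CpdA. Every CpdA library lay above every medium library, and the log2 fold change was 0.28 ± 0.03 (SE, adjusted p = 1.3e-10). mt-Cytb, the cytochrome b subunit of complex III (14145 to 15288, plus strand), had 1291, 1274 and 1320 CPM in medium and 1498, 1459 and 1464 CPM with CpdA. Its groups did not overlap either, and its log2 fold change was 0.18 ± 0.03 (SE, adjusted p = 4.17e-07). mt-Nd4 (10167 to 11544) had 622, 595 and 615 CPM in medium and 734, 669 and 662 with CpdA, or 0.16 ± 0.03 as a log2 fold change (SE, adjusted p = 8.62e-05). mt-Nd2 (3914 to 4951) had 552, 543 and 600 CPM in medium and 643, 649 and 608 with CpdA, or 0.16 ± 0.03 as a log2 fold change (SE, adjusted p = 0.000357). mt-Nd2 and mt-Nd4, like mt-Nd1, code for membrane subunits of complex I, and in both the groups did not overlap.

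The most abundant member, mt-Co1, which codes for the catalytic core of complex IV (5328 to 6872, plus strand), had 8845, 8593 and 9088 CPM in medium and 8808, 9090 and 9027 CPM with CpdA. The groups overlapped, and the log2 fold change was 0.01 ± 0.02 (SE, adjusted p = 0.731), whose sign turned with a length trend removed. Ratios within a library do not depend on scaling between libraries. Per 100 counts of mt-Co1, mt-Nd1 had 12.2, 12.8 and 12.7 counts in medium and 15.8, 14.98 and 14.6 with CpdA. For mt-Cytb the same ratio was 14.6, 14.8 and 14.5 in medium and 17.0, 16.1 and 16.2 with CpdA. The ratios of mt-Nd2 and mt-Nd4 to mt-Co1 also lay higher in every CpdA library than in any medium library, at means of 7.06 against 6.38 for mt-Nd2 and 7.68 against 6.91 for mt-Nd4. Within the mitochondrial genome, the change was therefore unequal.

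The mitochondrial rows together took 1.41% ± 0.05 of the counts in medium and 1.48% ± 0.03 with CpdA (SD, n = 3). The exact two-sided permutation test of this difference gave p = 0.1, the smallest that 3 libraries against 3 can give. Of the summed difference of 729 CPM, mt-Nd1 made up 247, mt-Cytb 179 and mt-Co1 133 CPM. The share of mt-Co1 among mitochondrial counts was 62.7% ± 0.5 in medium and 60.5% ± 1.0 with CpdA (SD, n = 3).

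The other mitochondrial rows were not called. mt-Nd5 (11742 to 13565) had 1232, 1113 and 1319 CPM in medium and 1234, 1402 and 1193 with CpdA, and its groups overlapped. mt-Nd6, which lies on the minus strand from 13552 to 14070, had 381, 343 and 456 CPM in medium and 313, 496 and 312 with CpdA (log2 fold change -0.08 ± 0.25, SE). Its end overlaps that of mt-Nd5, and without a known strand setting reads of either strand there cannot be told apart. mt-Co2 had 19.7, 27.4 and 25.2 CPM in medium and 20.6, 20.8 and 21.9 with CpdA. Its log2 fold change was -0.21 ± 0.08 (SE, adjusted p = 0.0543), and without the first medium library it was called (-0.33, adjusted p = 0.000585). mt-Co3 had 13.6, 20.2 and 14.6 CPM in medium and 13.3, 13.6 and 13.8 with CpdA, or -0.26 ± 0.11 as a log2 fold change (SE, adjusted p = 0.0624), called without medium library 1 or 3 (-0.37 and -0.33). mt-Atp6 had 10.4, 13.1 and 11.9 CPM in medium and 9.86, 10.7 and 11.9 with CpdA, and mt-Nd4l had 0.84, 0.931 and 1.05 CPM in medium and 1.17, 1.08 and 1.03 with CpdA. With the chromosome 1 copy added, log2 ratios of group means were -0.20 for mt-Co2, -0.19 for mt-Co3, -0.13 for mt-Atp6 and -0.02 for mt-Nd4l. For mt-Nd3, mt-Nd4 and mt-Co1 the same ratios were -0.71, 0.17 and 0.02.

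mt-Nd3 was the least reproducible of the 9801 genes with a mean of at least 5 CPM over the 6 libraries. It had 15.2, 8.54 and 15.2 CPM in medium and 4.72, 14.95 and 3.45 with CpdA, and its within-group SD of log2 CPM was 0.851. The log2 fold change was -0.72 ± 0.66 (SE, adjusted p = 0.495). Without the second CpdA library it was called lower (-1.68, adjusted p = 0.0176), as it was by limma-voom (-0.96, adjusted p = 0.00607). The nuclear long non-coding RNA Malat1 was second in that order, with an SD of 0.509, and mt-Nd6 was number 15, with an SD of 0.312. Malat1 had 1189, 815 and 1046 CPM in medium and 425, 939 and 426 with CpdA. In mt-Nd3, mt-Nd6 and Malat1 libraries 1 and 3 exceeded library 2 in medium, and library 2 exceeded libraries 1 and 3 with CpdA. The same order held in mt-Nd2, mt-Nd5, mt-Co1 and the summed share of mitochondrial counts, with smaller differences between libraries. Lars2, a mitochondrial leucyl-tRNA synthetase gene at number 51, showed this order too, with 1210, 946 and 1015 CPM in medium and 743, 1033 and 714 with CpdA. Gm26917, at number 17, had 213, 161 and 156 CPM in medium and 141, 207 and 140 with CpdA. It followed this order with CpdA but not in medium. Malat1, Lars2 and Gm26917 were picked after their values were seen, and what these rows share was not tested.

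**Figure D3:**
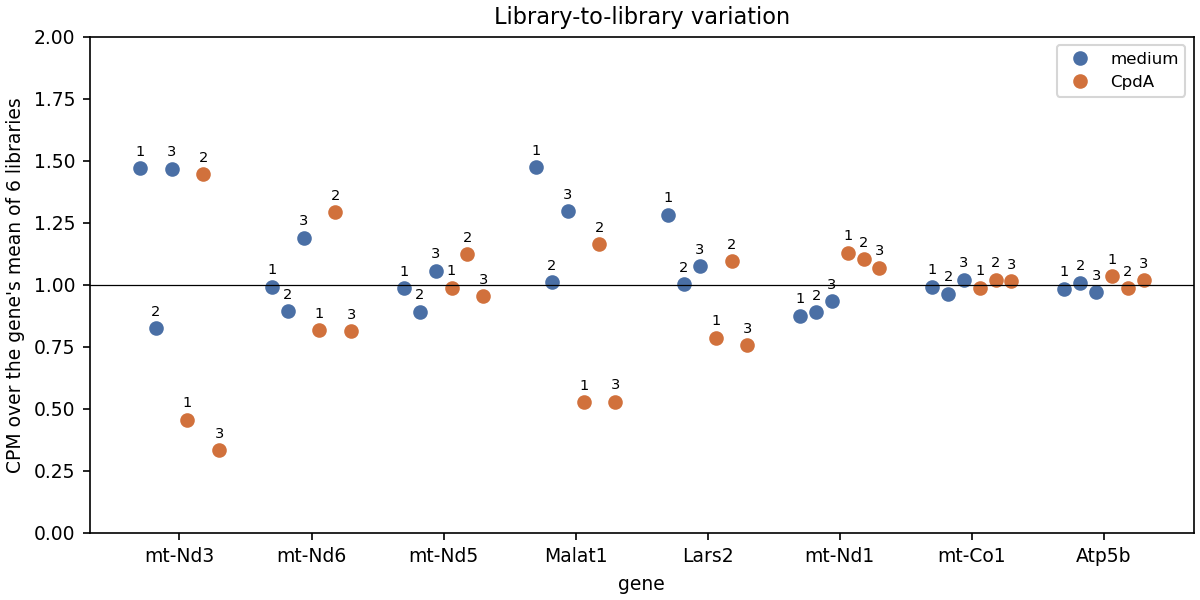
CPM of each library divided by the gene's mean over the 6 libraries, for mitochondrial rows, Malat1, Lars2 and Atp5b; digits are replicate numbers. CpdA libraries 1 and 3 are low and CpdA library 2 is high in mt-Nd3, mt-Nd6, Malat1 and Lars2, whereas mt-Nd1 separates by group.

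Of the 36 nuclear subunits of complex I, 5 were higher and 1 lower with CpdA, or 16.7%, the same share as over all nuclear members, and the median log2 fold change over all 36 was 0.00. Ndufa5, an accessory subunit of the matrix arm (chromosome 6, 24518666 to 24528013), had 30.4, 30.8 and 33.0 CPM in medium and 40.0, 39.1 and 35.9 with CpdA. The groups did not overlap, and the log2 fold change was 0.28 ± 0.06 (SE, adjusted p = 0.000219). Ndufab1, the mitochondrial acyl carrier protein, had 106 CPM in each medium library and 123, 117 and 116 with CpdA, or 0.16 ± 0.04 as a log2 fold change (SE, adjusted p = 0.000747). Ndufa12, another accessory subunit, had 61.0, 66.8 and 64.9 CPM in medium and 72.9, 72.5 and 71.1 with CpdA, with groups that did not overlap. The change was 0.16 ± 0.04 on the log2 scale (SE, adjusted p = 0.00537), and it missed the threshold without the first medium library (0.12, adjusted p = 0.0557).

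Ndufv1, which carries the NADH-binding site, had 88.5, 89.4 and 89.9 CPM in medium and 101, 97.1 and 95.3 with CpdA. Its log2 fold change of 0.12 ± 0.04 (SE, adjusted p = 0.015) was not past the threshold without the first CpdA library (0.10, adjusted p = 0.0743). Ndufb4 had between 17.2 and 20.6 CPM in medium and 21.6 and 22.5 with CpdA (0.19 ± 0.07, SE, adjusted p = 0.0421); this call was lost in DESeq2 (adjusted p = 0.0974) and without any 1 library except the second of medium. Ndufv3, another subunit next to the NADH-binding site, went the other way. It had 207, 194 and 216 CPM in medium and 179, 186 and 173 CPM with CpdA, or -0.21 ± 0.04 as a log2 fold change (SE, adjusted p = 1.67e-05), with every CpdA library below every medium library.

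The other 30 subunits of complex I had log2 fold changes between -0.11 and 0.10. They include subunits of the core that carries electrons: Ndufs1 (0.08), Ndufs3 (-0.10, adjusted p = 0.0663), Ndufs7 (-0.05), Ndufs8 (-0.02) and Ndufv2 (0.00). The summed level of the 36 subunits averaged 2594 ± 23 CPM for medium and 2605 ± 39 CPM for CpdA (SD, n = 3), and the groups overlapped. Ndufb2 was far below the other subunits, at 0.485 FPKM, where the next lowest, Ndufa11, had 16.1 FPKM. Their gene lengths, 4371 and 2661 bases beside a median of 1014.5 for the 36 subunits, lower these FPKM values. Ndufb7 is longer still, at 4435 bases, yet lay above both in FPKM.

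Assembly factors help to build complex I and are not part of the finished enzyme. Of the 7 Ndufaf genes, 3 were higher (Ndufaf2, Ndufaf4 and Ndufaf6), or 42.9%. Of all tested genes, 33.2% were called and 16.5% were higher. The median log2 fold change of the 7 Ndufaf genes was 0.11. Ndufaf4 (chromosome 4, 24898083 to 24905001) had 13.8, 15.4 and 14.4 CPM in medium and 22.9, 20.3 and 18.3 with CpdA, which was the largest change of any called member. The log2 fold change was 0.48 ± 0.08 (SE, adjusted p = 1.15e-05), and every CpdA library lay above every medium library. Ndufaf2 had 13.0, 11.04 and 12.03 CPM in medium and 14.8, 13.8 and 15.8 with CpdA (0.29 ± 0.09, SE, adjusted p = 0.00882); it missed the threshold without the second medium library (adjusted p = 0.0614) or CpdA library 3 (0.0669). Ndufaf6 had 9.58, 9.56 and 10.0 CPM in medium and 11.7, 10.9 and 12.1 with CpdA. Its log2 fold change of 0.24 ± 0.10 (SE, adjusted p = 0.0468) was past the threshold in edgeR but not in DESeq2 (0.111) or limma-voom (0.0509), nor without any 1 library except the second of CpdA. The factors Ndufaf1, Ndufaf3, Ndufaf5 and Ndufaf7 had log2 fold changes from -0.03 to 0.11 and were not called. Summed over the 7 genes, the level averaged 103.4 ± 0.7 CPM for medium and 115.3 ± 2.0 CPM for CpdA (SD, n = 3). Outside the name rule, 2 of the 8 tested complex I assembly genes were called (25%, below the 33.2% of all tested genes), both higher: Tmem70 (0.21) and Tmem126b (0.23).

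Complex II, which links the tricarboxylic acid cycle to the chain, showed no called subunit. EdgeR, DESeq2 and limma-voom each called 0 of its 4 genes, and 0 had an unadjusted p under 0.05 in edgeR. The flavoprotein gene Sdha had 257, 262 and 250 CPM in medium and 263, 261 and 261 with CpdA. The log2 fold changes were 0.02 ± 0.03 for Sdha, 0.05 ± 0.04 for Sdhb, -0.02 ± 0.04 for Sdhc and 0.02 ± 0.04 for Sdhd (SE).

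In complex III, which passes electrons from ubiquinone to cytochrome c, 1 of 9 nuclear genes was higher (11.1%, beside 16.5% of all tested genes). Cyc1, the cytochrome c1 subunit (chromosome 15, 76343523 to 76345934), had 122, 140 and 136 CPM in medium and 152, 140 and 149 with CpdA. Its log2 fold change was 0.13 ± 0.04 (SE, adjusted p = 0.00976), and it was not called without the first medium library (0.08, adjusted p = 0.134) or the first CpdA library (0.11, adjusted p = 0.0601). The 8 Uqcr genes had log2 fold changes from -0.05 for Uqcrh to 0.10 for Uqcrb. The core protein genes had 0.01 (Uqcrc1) and 0.00 (Uqcrc2), and the iron-sulfur protein gene Uqcrfs1 had 0.02.

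Cycs codes for cytochrome c, the mobile carrier between complexes III and IV that also triggers apoptosis when released (chromosome 6, 50562563 to 50566538). It had 172, 165 and 161 CPM in medium and 189, 193 and 186 with CpdA. The groups did not overlap, and the log2 fold change was 0.18 ± 0.03 (SE, adjusted p = 3.14e-05). Gm10053, a row matching Cycs at 99.9% over 946 bases, had 224 counts over all libraries beside 24806 for Cycs.

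Complex IV, the oxidase, held no called nuclear gene among the 16 tested. DESeq2 and limma-voom also called 0, and at an unadjusted p under 0.05 in edgeR 1 gene was higher (Cox6a2) and 1 lower (Cox4i2). The summed level of its nuclear genes averaged 1940 ± 31 CPM for medium and 1965 ± 31 CPM for CpdA (SD, n = 3). Several subunits of this complex come in forms that differ between tissues, and in each such pair 1 form dominated in these T cells. Per length, Cox4i1 had 299 FPKM and Cox4i2 2.25, Cox6a1 had 424 and Cox6a2 1.86, and Cox6b1 had 276 and Cox6b2 5.30. Cox7a2 had 127 FPKM and Cox7a1 8.83, and Cox8a had 463 beside 0.0977 for Cox8b. The related Cox7a2l lay above Cox7a2 in CPM, at 160 to 178 against 90.1 to 98.7 over the 6 libraries. Ndufa4 had 191 FPKM and its relative Ndufa4l2, known as a target of hypoxia signalling, had 0.161.

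The dominant forms were not called: the log2 fold change was 0.04 ± 0.03 for Cox4i1, 0.00 ± 0.03 for Cox6a1, 0.01 ± 0.04 for Cox6b1, 0.04 ± 0.04 for Cox7a2 and 0.01 ± 0.03 for Cox8a (SE); the signs for Cox6a1, Cox6b1 and Cox8a turned when single libraries were left out. The minor forms varied more. Cox4i2, whose product is induced at low oxygen, had 2.07, 1.99 and 1.92 CPM in medium and 1.07, 1.66 and 1.19 with CpdA. Its groups did not overlap, but its log2 fold change of -0.60 ± 0.24 (SE) had an adjusted p of 0.0529, and it passed without the second CpdA library (-0.82, adjusted p = 0.0208). Cox6a2, the form of heart and muscle, had 0.79, 1.14 and 0.831 CPM in medium and 1.12, 2.16 and 1.31 with CpdA. The log2 fold change was 0.73 ± 0.30 (SE, adjusted p = 0.0578), and it passed without the second medium library (0.92, adjusted p = 0.0429) or the first CpdA library (0.90, adjusted p = 0.0314). Cox7a1, another muscle form, had 3.65, 3.89 and 3.41 CPM in medium and 2.01, 3.97 and 2.34 with CpdA (log2 fold change -0.39 ± 0.19, SE, adjusted p = 0.123), and among the settings tried was called only without the second CpdA library (-0.75, adjusted p = 0.00367).

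Complex V contains the most abundant nuclear transcript of the chain, Atp5b, its catalytic beta subunit, at 838 FPKM. Cox8a (463), Cox6a1 (424), Cox5b (348) and Atp5a1 (328) followed it, and Cox4i1 (299) came next. Ranges over the 6 libraries overlapped between Cox5b and Atp5a1 and between Atp5a1 and Cox4i1, and not between the other neighbours in this order. Of the 15 subunits, 1 was higher and 2 were lower, or 20% called, beside 33.2% of all tested genes. The ring that turns in the membrane is built of subunit c, whose identical mature protein comes from 3 genes. Atp5g1 (chromosome 11, 96068852 to 96075670) had 88.1, 95.3 and 91.4 CPM in medium and 105, 99.2 and 103 with CpdA, or 0.15 ± 0.04 as a log2 fold change (SE, adjusted p = 0.00322). Atp5g2 (chromosome 15, 102662864 to 102672352) had 204, 202 and 206 CPM in medium and 186, 193 and 190 with CpdA, or -0.11 ± 0.03 as a log2 fold change (SE, adjusted p = 0.00496).

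The groups did not overlap for either gene, and they moved in opposite directions. Atp5g3 had 218, 241 and 225 CPM in medium and 251, 238 and 239 with CpdA and was not called (0.08 ± 0.03, SE, adjusted p = 0.073); it passed without the second medium library (0.12, adjusted p = 0.00602). Per length, Atp5g2 and Atp5g3 stood at 262 and 273 FPKM and Atp5g1 at 20.6. The gene lengths were 753, 862 and 4715 bases in that order, so dividing by length widens the gap seen in CPM. Atp5d, the delta subunit of the central stalk, had 296, 318 and 308 CPM in medium and 290, 276 and 286 with CpdA (-0.12 ± 0.03, SE, adjusted p = 0.0015). On the opposite strand it overlaps the gene Dos, which had 5479 counts in all beside 41121 for Atp5d, so their reads cannot be told apart without a strand setting. Atp5sl, which shares the name but is not a subunit, was lower (-0.23 ± 0.07, SE, adjusted p = 0.00631), though not past the threshold without the second CpdA library (-0.18, adjusted p = 0.0554).

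Rows annotated as pseudogenes of nuclear members also stand in the table. For 15 nuclear members, 6 of them called, 22 pseudogene rows matched at 97% or more over at least 200 bases. Gm10053, given above, is annotated as protein-coding and is not among them. The highest of the pseudogene rows had 154 counts over all libraries, and none reached more than 1.19% of its member's count.

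Promoters of nuclear chain genes are known to hold binding sequences for NRF1 and the ETS factor GABP. RefSeq (GRCm38.p6) promoters from 250 bases before to 50 after the gene start were matched for 76 of the 92 nuclear members and for 10041 of the tested genes. The NRF1 sequence GCGCNTGCG, searched on both strands, was present in 25 of the 76 (32.9%), beside 14.4% of all tested promoters. It stood in 7 of the 13 called members with a promoter (53.8%) and in 18 of the 63 others (28.6%), with no test made. By complex it was found in 9 of 32 promoters of complex I, 2 of 6 of its assembly factors, 2 of 3 of complex II, 3 of 5 of complex III, 1 of 13 of complex IV and 6 of 14 of complex V. The ETS and GABP sequence CCGGAAGT was found in 6.58% of member promoters and 8.84% of all, the YY1 sequence AAGATGGCG in 9.21% and 3.28%, and the E-box CACGTG in 9.21% and 10.3%. Overlaps between different sequences were not removed, and a match describes letters only.

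The promoters of 4 called members are shown because they carry the NRF1 letters, marked in capitals, while the genes moved in both directions: Cycs, Ndufaf4 and Ndufa5 were higher with CpdA and Atp5g2 was lower. They are chr6:50566520-50566819 (minus strand), chr4:24897833-24898132 (plus), chr6:24527641-24527940 (minus) and chr15:102670998-102671297 (minus) in GRCm38.p6, each written along its gene. The match begins 61 bases before the start in Cycs and 25 before it in Ndufa5. In Ndufaf4 and Atp5g2 matches on both strands overlap, the first beginning 113 and 42 bases before the start.

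Cycs: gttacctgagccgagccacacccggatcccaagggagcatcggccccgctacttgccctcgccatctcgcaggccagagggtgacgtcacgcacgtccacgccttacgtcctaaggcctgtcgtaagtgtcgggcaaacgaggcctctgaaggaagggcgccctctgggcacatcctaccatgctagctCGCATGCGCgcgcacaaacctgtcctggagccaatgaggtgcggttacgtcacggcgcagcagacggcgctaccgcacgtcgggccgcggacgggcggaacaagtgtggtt
Ndufaf4: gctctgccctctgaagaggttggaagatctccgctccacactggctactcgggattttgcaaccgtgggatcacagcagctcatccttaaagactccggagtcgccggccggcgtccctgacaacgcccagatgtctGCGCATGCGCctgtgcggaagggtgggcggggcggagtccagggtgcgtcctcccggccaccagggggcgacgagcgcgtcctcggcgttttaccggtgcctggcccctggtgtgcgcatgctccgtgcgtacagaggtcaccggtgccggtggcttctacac
Ndufa5: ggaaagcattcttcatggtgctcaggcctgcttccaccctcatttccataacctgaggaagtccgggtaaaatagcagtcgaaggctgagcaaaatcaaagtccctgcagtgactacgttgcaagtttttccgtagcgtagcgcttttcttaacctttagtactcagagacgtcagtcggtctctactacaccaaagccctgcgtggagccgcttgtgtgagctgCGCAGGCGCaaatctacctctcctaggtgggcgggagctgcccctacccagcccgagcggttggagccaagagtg
Atp5g2: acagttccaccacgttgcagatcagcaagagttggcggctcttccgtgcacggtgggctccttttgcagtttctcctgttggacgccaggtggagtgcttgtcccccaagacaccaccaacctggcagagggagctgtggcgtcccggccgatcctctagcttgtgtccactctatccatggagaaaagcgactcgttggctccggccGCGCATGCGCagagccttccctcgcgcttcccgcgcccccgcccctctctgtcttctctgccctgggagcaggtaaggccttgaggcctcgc

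The genes around the chain were grouped in 12 lists of other functions. The list of mitochondrial RNA processing and stability had 12 of its 21 tested genes higher and 2 lower (66.7% called), with a median log2 fold change of 0.15, beside 16.5% higher and 16.7% lower among all tested genes. Tbrg4, a FASTK family protein that stabilises mitochondrial RNAs, rose from 75.5 to 95.3 CPM (0.32 ± 0.04, SE, adjusted p = 1.3e-07). Its relatives Fastkd1 (0.30), Fastkd2 (0.43) and Fastkd5 (0.56) were higher as well, whereas Fastk (-0.09, adjusted p = 0.0797) and Fastkd3 (-0.09, adjusted p = 0.252) were not called, with every CpdA library below every medium library. Ptcd3, a pentatricopeptide protein of the mitochondrial ribosome (0.29), and Trmt10c, a subunit of mitochondrial RNase P (0.35), were also higher. Lrpprc (0.15) and Slirp (0.24), whose products bind and protect mitochondrial messenger RNAs, were higher too. Hsd17b10, another subunit of RNase P (-0.13), and Grsf1 of the mitochondrial RNA granules (-0.12) were lower.

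Of 14 tested genes for transcription and replication of mitochondrial DNA, 4 were called (28.6%, below the 33.2% of all tested genes), all higher: Rnaseh1 (0.33), Mgme1 (0.33), Ssbp1 (0.16) and Tfam, the factor that packages mitochondrial DNA and starts its transcription (0.19 ± 0.05, SE, adjusted p = 0.0035). Of 8 regulators of chain gene transcription, 3 were called (37.5%, near that share), all higher. These were the coactivators Pprc1 (79.1 to 98.7 CPM, 0.31 ± 0.05, SE, adjusted p = 1.4e-06) and Ppargc1b (0.42) and the GABP subunit gene Gabpb1 (0.21).

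Assembly genes of the other complexes moved in both directions. Of the complex II pair, Sdhaf1 (0.17 ± 0.19, SE) and Sdhaf2 (0.14 ± 0.06, SE, adjusted p = 0.0516) were not called. For complex IV, 3 of 22 were higher, among them Coa7 (8.10 to 11.8 CPM, log2 0.54) and Cox10 (0.27), and 2 lower, Higd1a (-0.22) and the copper chaperone Cox17 (-0.34). The ATP synthase inhibitor Atpif1 was higher (0.20) among 5 genes tested for complex V, and Hccs, which attaches haem to cytochrome c and c1, was lower (-0.17) among 6 for complex III. In ubiquinone synthesis Coq2 (0.24) and Pdss1 (0.28) were higher and Coq9 (-0.25) was lower, of 13 tested. In the list for electron entry at other points, Dhodh of pyrimidine synthesis was higher (0.25), and Suox (-0.29) and Aifm2 (-0.32) were lower, of 10. The groups overlapped for Aifm2. In the tricarboxylic acid cycle outside complex II, 5 of 17 genes were higher, led by Dlst (0.21) and Idh3a (0.21), and Suclg1 was lower (-0.09). The called shares were 35.3% for this list, 30% for electron entry at other points, 23.1% for ubiquinone synthesis and 22.7% for complex IV assembly. They were 20% for complex V and 16.7% for complex III, beside 33.2% of all tested genes.

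The list of genes by which low oxygen alters the chain had 6 of 10 lower, beside 16.7% lower among all tested genes. The minor form Cox4i2, which it shares with complex IV, was among the rest. The list's median level was 317 CPM, and 46.8% of genes with a mean of at least 20 CPM were called in either direction. Bnip3l, a receptor for the removal of mitochondria, fell from 471 to 357 CPM (-0.41 ± 0.03, SE, adjusted p = 2.7e-12). Pdk1, a kinase that inhibits pyruvate dehydrogenase, fell from 270 to 218 CPM (-0.32 ± 0.03, SE, adjusted p = 6.2e-11). Higd1a, Bnip3, Lonp1 and Pdk3 fell by 0.22, 0.16, 0.12 and 0.12 on the log2 scale. Higd1a is also counted among the complex IV assembly genes above.

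**Figure D4:**
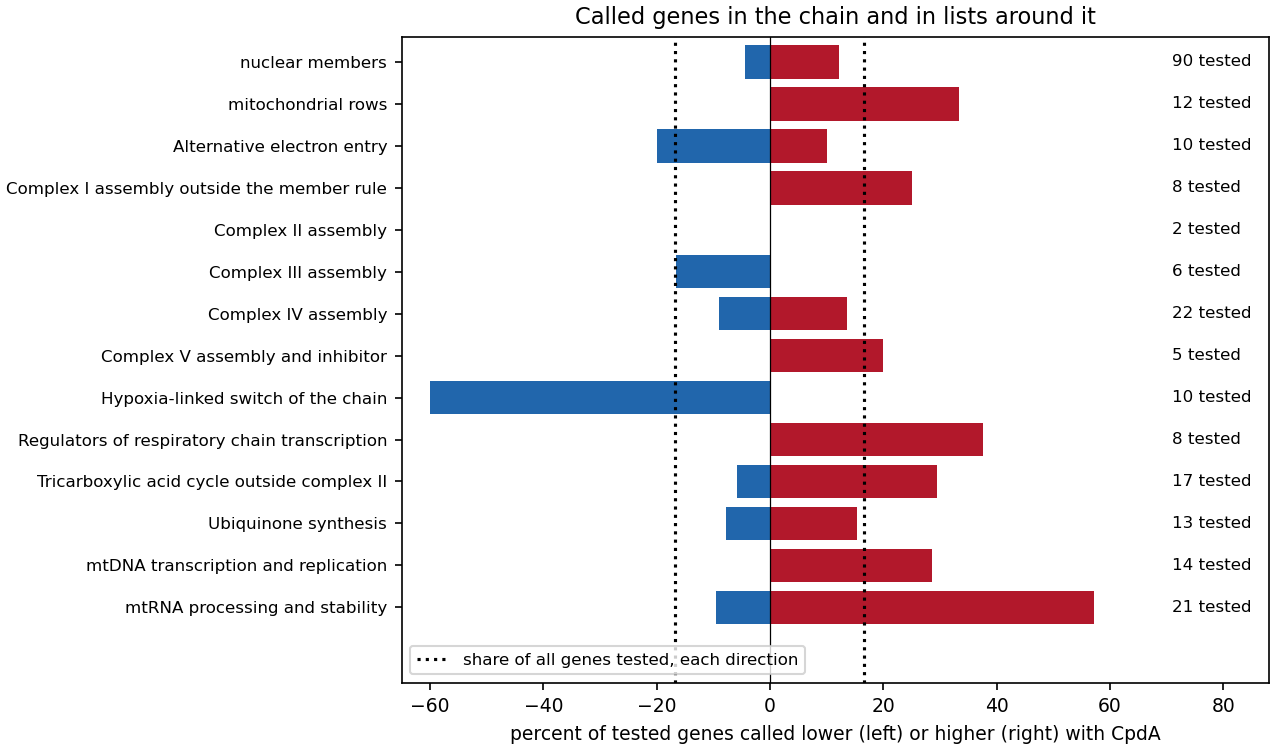
Percent of tested genes called lower (left) and higher (right) in the nuclear members, the mitochondrial rows and 12 lists around the chain; dotted lines give the share of all tested genes called in each direction. The mitochondrial RNA processing list has 12 of 21 genes higher, and the low-oxygen list has 6 of 10 lower.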

How the data were processed

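RNA-seq libraries were made from 1 µg of Trizol RNA with an NEBNext Ultra RNA kit, per the labels' protocols. Raw read counts per gene, per the file headers, are what the authors deposited, one column a library. Deposited beside them are FPKM values, which follow from count, gene length and library total within a relative difference of 1.86e-07. CASAVA 1.8 and the builds GRCm38 and mm10 are named in the submitters' processing notes. The aligner, counter, annotation and strand setting are named in no source used here.

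The 105 members and the lists were chosen with earlier results of these data known. Groups came from the labels alone, and 0 columns were left unmapped. Counts were tested in R 4.3.3 with edgeR 4.0.16 (TMM scaling, robust quasi-likelihood fit, no covariates) after filterByExpr (minimum count 10, minimum total 15), with Benjamini-Hochberg adjustment over 13507 genes. Alternatives were DESeq2 1.42.0, limma-voom (limma 3.58.1), other scalings and filters, a length trend offset, a replicate block and leaving out each library. On simulated counts (13358 genes tested), the recovered share of truly changed genes was 58.2% at 1.25-fold, 79.7% at 1.5-fold and 92.1% at 2-fold. False calls numbered 5 among 13164 genes. Only 67, 64 and 63 tested genes were changed at these folds, where 4483 were called in the data. The shares therefore do not measure how many changes were found in the data. Transcripts of GENCODE M21 were compared with blastn 2.17.0. Within a group, libraries differed by more than sampling noise (chi-square per degree of freedom 2.13 to 3.95). Values per library are given for every mitochondrial row and for up to 4 called genes per complex with the smallest p. Of a fixed set of related subunits, some have values per library and the others a mean level, a range or a fold change. Up to 3 called genes per list are named. Further list genes, Uqcr, Ndufs and Ndufaf genes, Ndufb2, Ndufb7, Ndufa11, Malat1, Lars2 and Gm26917 were named after their values were seen.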

Additional observations from a re-analysis of the deposited data

How the results depend on the processing

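For 39 named genes, 541 of 607 values under other settings kept their direction and their side of the threshold, 28 were no longer past it, 17 came past it and 21 changed sign. The 4 mitochondrial rows that were higher numbered 4 under each alternative in which those rows were tested (leaving the mitochondrial rows out of the totals also left them untested), and nuclear members called higher numbered 7 to 12 when 1 library was left out, with 7 without the first medium library, beside 11. Nuclear members called lower numbered 4 to 6. Mitochondrial rows called lower numbered 0 in the edgeR test, 1 with limma-voom, 1 under the filter of 5 CPM in 3 libraries, 2 with no count filter, and 0 to 2 when 1 library was left out. Leaving out 1 library gave 3 to 5 higher and 1 to 2 lower subunits of complex I, 1 to 3 higher assembly factors, 0 to 1 higher in complex III, 0 to 1 higher and 0 to 2 lower in complex IV, and 1 to 3 higher in complex V. Complex I had 2 lower under the filter of 5 CPM in 3 libraries and 3 with the length trend removed; complex V had 3 higher with the library total alone and 2 with the length trend removed. The mitochondrial share differed by 0.0729 percent of counts, and by 0.0492 to 0.0987 with 1 library left out. The cause of these shifts was not tested; each leave-out fit has fewer samples.

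Sign changes were confined, among the 39 genes, to small or imprecise differences. With the length trend removed mt-Co1 was -0.01, also with the replicate block (-0.01). Under the filter of 5 CPM in 3 libraries Cox6a1 was -0.01 and Cox8a was 0.00. When 1 library was left out, log2 values ranged from -0.02 to 0.12 for mt-Nd5, -0.34 to 0.04 for mt-Nd6, -0.01 to 0.03 for mt-Co1, -0.01 to 0.03 for Cox6a1, -0.01 to 0.05 for Cox6b1, -0.10 to 0.05 for Cox6b2, -0.01 to 0.02 for Cox8a and -0.01 to 0.06 for Ndufa4.

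The groups share replicate numbers, so a replicate block was fitted. Same-numbered libraries did not deviate together (correlations of -0.021, -0.015 and -0.001), so the numbers were not taken as pairs. With the replicate block, 1927 of all genes were higher and 2009 lower (beside 2231 and 2252), 9 nuclear members were higher and 4 lower, and 4 mitochondrial rows were higher and 1 lower (mt-Co3). With the replicate block and the length trend removed, 2 mitochondrial rows were lower, and complex I had 3 subunits higher and 2 lower. mt-Atp8, Cox8b and Ndufa4l2 had too few counts to be tested, and in the shallowest library a count of 0 leaves room for 0.148 CPM (3 counts, counting error only).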
